A study of Homo sapiens with 24 samples.

Results

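The response of T47D-co breast cancer cells to the synthetic progestin R5020 was measured in the absence of interferon, by RNA sequencing of total RNA. It rests on 6 of the 24 libraries of the series, chosen by their labels: 3 biological replicates given R5020 (10 nM) and 3 given its ethanol vehicle (EtOH) for 6 hours, all 6 with water for 18 hours in place of interferon-alpha (IFN). The sample titles give these times without their order. T47D-co is a derivative of the human luminal breast cancer line T47D that is labelled as positive for progesterone receptor (PR). The other 18 libraries hold the same agents with IFN (20 IU per ml, 18 hours) in T47D-co, and all 4 treatments in T47D-Y, a derivative labelled PR null. They served for the shared estimate of the spread and for 2 comparisons: 6 libraries of T47D-Y given EtOH or R5020 with water, and 6 of T47D-co given EtOH or R5020 with IFN. Both lines derive from 1 tumour line, so replicates are separate samples of 1 line. SEs and p-values rest on 1 spread per gene between replicates, shared over all 24 libraries. They do not measure the spread of the 6 libraries alone.

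PR is a ligand-activated transcription factor. When progesterone or a progestin such as R5020 binds, it leaves its chaperones, dimerizes and binds response elements in DNA that it shares in part with the glucocorticoid and mineralocorticoid receptors. In breast epithelium progesterone is known for paracrine control of proliferation, for a transient entry into the cell cycle in culture, and for opposing parts of the oestrogen response.

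Levels below are scaled fragments, the estimated number of sequenced fragments of a gene in a library brought to a common depth. Each fold change is a limma estimate with its SE, given on a log2(scaled fragments + 1) scale from 3 libraries a group, which understates the change of low genes: with 10 added in place of 1, PDK4 moves from 4.34 to 2.37 and PLAU from -3.16 to -1.48. A gene is said to rise or fall only where limma's Benjamini-Hochberg adjusted p over all 20162 tested genes was under 0.05. The 6 libraries held between 15540000 and 25570000 estimated fragments. Libraries of 1 group correlated at 0.985 to 0.988 across genes and libraries of different groups at 0.947 to 0.953. T47D-co EtOH replicate 2 stood apart in mitochondrial transcripts, which took 1.07% of its fragments against 3.17 to 4.44% in the other 5. The largest mitochondrial entry was listed at 0 in that library and at 495847 to 647431 scaled fragments in the other 5. Without it limma called 10714 genes, against 11396 with it.

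The luminal identity of the line was seen in all 6 libraries. KRT8, KRT18 and KRT19, keratins of luminal cells, lay at 4605 scaled fragments or above, and the epithelial adhesion molecule EPCAM lay at 1444 to 1592. PGR, the gene of PR, lay at 12781 scaled fragments or above, while TFF1, an oestrogen-regulated secreted peptide of many luminal lines, reached at most 5.77. The immune markers PTPRC, CD3E and LYZ and the endothelial markers VWF, CDH5 and TEK stayed below 10 scaled fragments in every library. COL1A1, a fibrillar collagen, lay at 437 to 465 scaled fragments with EtOH and at 321 to 375 with R5020, and was the only one of 7 fibroblast markers listed alone. The adipocyte markers ADIPOQ and LEP summed to 43.5 to 61.6 with EtOH and 31.1 to 37.7 with R5020. The part of such cells in the results was not tested.

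R5020 moved the expression of most of the tested genes, mostly by small amounts. limma called 11396 of 20162 genes (56.5%), 5357 higher (26.6%) and 6039 lower (30.0%). Libraries were scaled by median ratios over genes, so higher and lower are relative to the typical gene. A change in total RNA per cell could not be seen. At a change of at least 2-fold there were 1430 genes higher (7.09%) and 1627 lower (8.07%), an order that turned in some alternative fits. At least 4-fold there were 455 and 380, and at least 8-fold 181 and 79, so the raised genes were the larger group among the largest changes. Of the calls, 52.4% were under 1.5-fold, and 2993 genes passed limma's treat test against a fold of 1.5. The genes raised at least 2-fold took 3.61% of the scaled fragments of all tested genes with EtOH and 10.3% with R5020. Those lowered at least 2-fold took 4.85% with EtOH and 1.53% with R5020. Both sets were chosen by their change in these same libraries, so the direction of both shifts was set by the choice. Of 13018 tested protein-coding genes 8561 were called, and 1063 rose and 855 fell by at least 2-fold. Counts of the gene lists below are to be read beside these numbers. No list was tested against the share called over all genes.

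**Figure D1:**
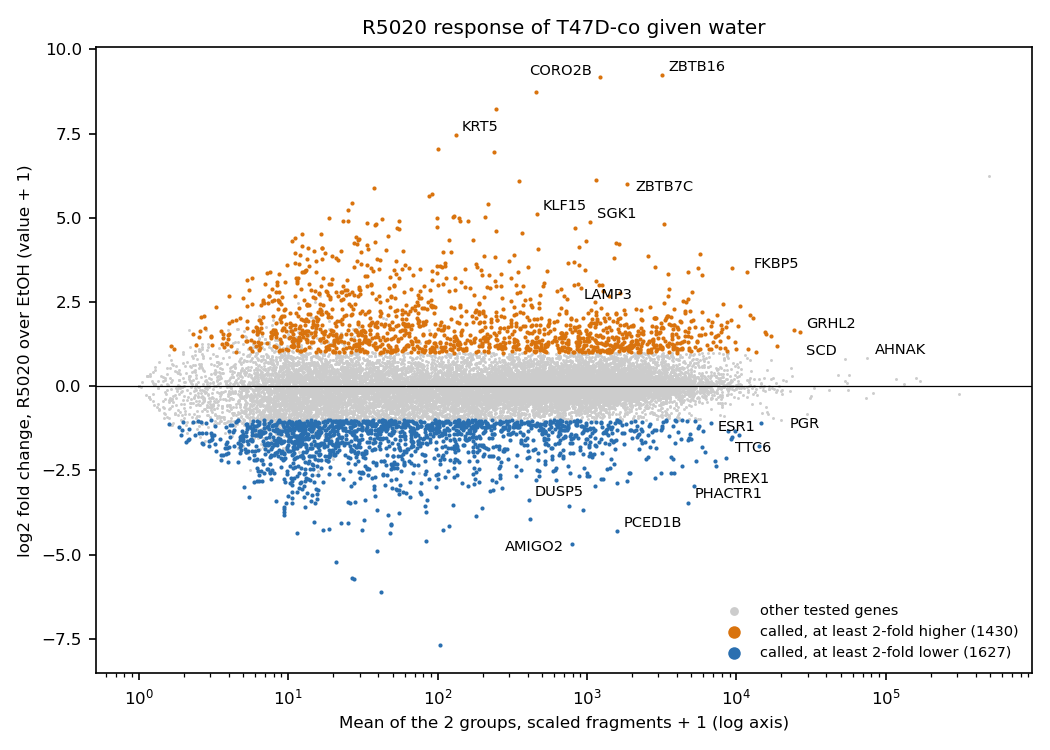
Mean of the EtOH and R5020 groups in scaled fragments + 1 (log axis) against the log2 fold change with R5020 for each of 20162 tested genes in T47D-co given water, with called genes of at least 2-fold in orange (1430 higher) and blue (1627 lower). ZBTB16 and CORO2B lie above 9 on the log2 scale at high levels, and the grey point at the far right is the mitochondrial entry listed at 0 in 1 library.

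The genes with the largest rise went from near 0 to high levels. ZBTB16, a zinc finger repressor of the BTB family, lay at 7.94, 12.1 and 9.22 scaled fragments with EtOH and at 6187, 6402 and 6456 with R5020. Its rise was 9.22 ± 0.31 on the log2 scale (limma, Benjamini-Hochberg adjusted p = 1.11e-18), or 597-fold. CORO2B, an actin-binding coronin, went from 1.92, 3.57 and 4.61 scaled fragments to 2285, 2517 and 2495, a rise of 9.17 ± 0.23. The EtOH and R5020 libraries did not overlap in either gene. That was so for 12441 of the 20162 tested genes (61.7%) and for 10939 of the 11396 called ones (96.0%). The genes named for the largest rises, falls, gains and losses were required to show it, so it does not set them apart.

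Further transcription factors were among the large rises. ZBTB7C, another BTB zinc finger protein, lay at 47.2, 62.8 and 61.1 scaled fragments with EtOH and at 3596, 3794 and 3606 with R5020 (5.99 ± 0.08). PRDM1, a repressor that drives terminal differentiation of B cells, rose by 5.41 ± 0.39 and KLF15, a Kruppel-like factor, by 5.11 ± 0.17.

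Some rises began at or near 0, where the fitted value depends on the added 1. KRT5, a basal keratin, had 2 fragments over the 3 EtOH libraries and 252, 253 and 278 scaled fragments in the R5020 libraries. The ratio of the KRT5 groups was 428, with a 95% counting interval of 118 to 3543. KLK3, the prostate-specific antigen gene, had 1 fragment with EtOH and 66.3, 73.9 and 79.3 scaled fragments with R5020, a ratio of 240 (42.6 to 9521). ATP1A4, a sodium pump subunit, also had 1 fragment with EtOH (ratio 165, interval 29.2 to 6562). Also among the 12 with the largest rise were ELFN2, a leucine-rich repeat membrane protein (6.95 ± 0.45), APLN, the ligand of the apelin receptor (5.69 ± 0.62), and SEPT14, a septin (5.65 ± 0.55). These intervals cover counting error only.

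Several of the deepest falls were in genes that had been well expressed. AMIGO2, a leucine-rich repeat adhesion protein, lay at 1531, 1565 and 1510 scaled fragments with EtOH and at 59.3, 63.8 and 53.0 with R5020, a fall of 4.69 ± 0.16 on the log2 scale (limma, Benjamini-Hochberg adjusted p = 7.48e-19). PCED1B, whose product is of little known function, went from 3147, 3114 and 2823 to 153, 162 and 141 (-4.31 ± 0.08). PHACTR1, a regulator of phosphatase 1 and actin, went from 8458 to 8935 scaled fragments down to 750 to 864 (-3.45 ± 0.06). PHACTR1 was the most abundant of the 3 in both groups.

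The other 9 of the 12 largest falls had log2 values from -4.35 to -3.36. They were BAI3, an adhesion receptor (-4.35 ± 0.42), FAM5C (-4.12 ± 0.24), CCDC154 (-3.94 ± 0.19), the B cell factor EBF1 (-3.87 ± 0.33), the bombesin receptor GRPR (-3.55 ± 0.18), the potassium channel KCNH7 (-3.52 ± 0.11), the protocadherin PCDH17 (-3.44 ± 0.26), the phosphatase DUSP5 (-3.37 ± 0.07) and the fucosyltransferase FUT9 (-3.36 ± 0.36). KCNH7 lies at a locus with further annotated genes, and the authors' counting divided the fragments there. The change of the fragments summed over the locus, called its summed locus below, was -1.20 there, and it is given for any other gene where it differs from the gene's own value by over 1.5 times. The ranking named protein-coding genes only, passing over 17 non-coding or merged entries among the falls and 4 among the rises.

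In absolute amounts the largest gains were in abundant genes. AHNAK, a giant scaffold protein, went from 52659 to 54337 scaled fragments up to 94834 to 95398, a rise of 0.83 ± 0.02 (0.52 with quantile normalization). SCD, the desaturase that makes monounsaturated fatty acids, rose from 37971 to 39585 up to 67587 to 69317 (0.82 ± 0.03). GRHL2, a grainyhead factor of epithelial identity, rose by 1.60 ± 0.03 and the transporter gene SLC22A23 by 1.68 ± 0.03. LDLRAD4, a membrane inhibitor of TGF-beta signalling, rose by 1.49 ± 0.04. The largest losses were in IGFBP5, an insulin-like growth factor binding protein (-0.81 ± 0.04), NCAM2, a neural adhesion molecule (-1.78 ± 0.05), PGR, TENM3 (-0.95 ± 0.03), TTC6 (-2.14 ± 0.04) and PREX1, a Rac exchange factor (-2.38 ± 0.03). Here too only protein-coding genes are named, passing over 1 entry among the gains and 3 among the losses. PREX1 lay at 12304, 12016 and 12490 scaled fragments with EtOH and at 2272, 2413 and 2381 with R5020.

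**Figure D2:**
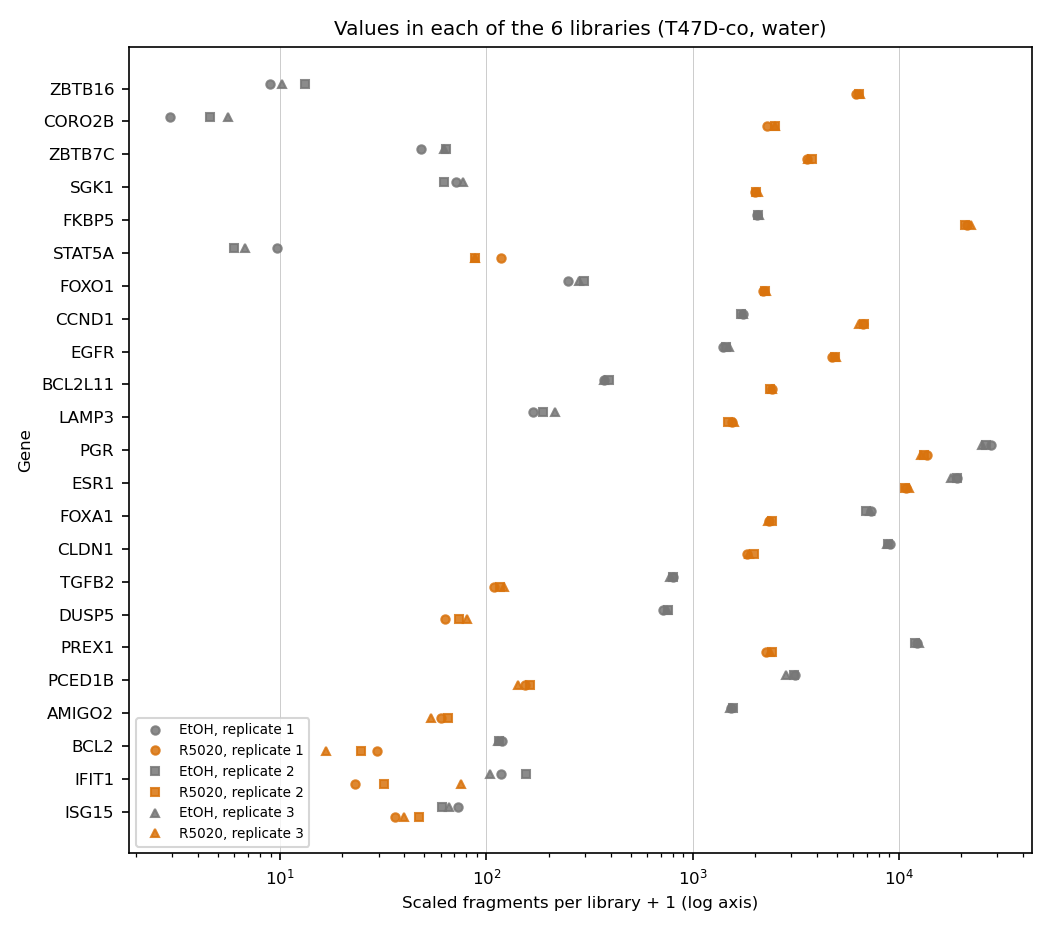
Scaled fragments + 1 (log axis) of 23 genes in each of the 6 T47D-co libraries given water, with EtOH in grey, R5020 in orange and 1 symbol per replicate number. Genes named for the largest rises, falls, gains or losses were required not to overlap, while list members and genes always shown were not. The gap is narrowest for ISG15 (46.2 in R5020 replicate 2, 59.9 in EtOH replicate 2) and IFIT1 (74.6 in R5020 replicate 3, 103 in EtOH replicate 3).

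Of 9 nuclear receptor genes 6 fell and 3 rose, while most of the chaperones rose by small amounts. PGR lay at 27957, 26310 and 25173 scaled fragments with EtOH and at 13718, 13254 and 12781 with R5020 (-0.998 ± 0.05). The glucocorticoid receptor NR3C1 (-1.04 ± 0.13), the mineralocorticoid receptor NR3C2 (-0.86 ± 0.06), the oestrogen receptor ESR1 (-0.78 ± 0.04) and the retinoic acid receptor RARA (-1.14 ± 0.07) also fell. The vitamin D receptor VDR was the receptor with the largest rise, from 1955 to 2101 up to 5357 to 5396 scaled fragments (1.40 ± 0.04). Of the 20 genes of the list 13 rose and 6 fell, with a median of 0.18 against -0.04 over all tested genes. FKBP5, the immunophilin that lowers receptor affinity for hormone, rose by 3.38 ± 0.04, the other chaperones DNAJB1 by 0.90 ± 0.04 and HSP90AA1 by 0.22 ± 0.05. With quantile normalization 8 of the list rose and 6 fell, and HSP90AA1 was not called (0.10).

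The 2 PGC-1 coactivators moved in opposite directions. PPARGC1B rose from 521, 482 and 505 scaled fragments to 2269, 2198 and 2221 (2.15 ± 0.04). PPARGC1A fell from 164, 178 and 159 to 33.6, 21.0 and 24.3 (-2.65 ± 0.29). Of 19 coactivators and corepressors 6 rose and 12 fell (median -0.20). The p160 coactivator NCOA3 fell by 0.36 ± 0.03 on the log2 scale, while the p160 coactivator NCOA1 rose by 0.72 ± 0.03.

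Known progestin and glucocorticoid targets rose almost without exception. Of 38 listed genes 35 were tested, 32 rose and 0 fell, with a median of 1.81. At a change of at least 2-fold 27 rose. SGK1, a kinase that retains sodium channels at the membrane, lay at 70.2, 61.4 and 76.0 scaled fragments with EtOH and at 1999, 2023 and 2074 with R5020 (4.86 ± 0.11). Further members were PDK4, an inhibitor of pyruvate oxidation (4.34 ± 0.45), LIFR, a cytokine receptor (3.86 ± 0.15), CEBPD, a bZIP factor (3.45 ± 0.13), F3, tissue factor of the clotting cascade (3.06 ± 0.09), and S100P, a calcium-binding protein (2.94 ± 0.11). TSC22D3, the glucocorticoid-induced leucine zipper, rose by 2.16 ± 0.07, from 354 to 406 scaled fragments up to 1561 to 1722. The 3 members without a call were DHRS2 (-0.08 ± 0.24), PNMT (-0.19 ± 0.48) and CALCR (-1.05 ± 0.51), which was called at -1.40 without R5020 replicate 1. The list was drawn up from known targets, and several of them had been seen in earlier results of these libraries, so its direction is not independent evidence.

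The core of the steroid receptor element, written ACANNNTGT and read alike on both strands, was searched in the 250 bases before each RefSeq gene start (GRCh38.p14). It occurred in 2.88% of 15940 promoters of 10927 tested genes. It was in 4.00% of 375 promoters of genes raised at least 4-fold, 5.73% of 279 of genes lowered at least 4-fold and 2.68% of promoters of genes without a call. The shorter hexamer TGTTCT, on either strand, occurred in 9.33% of the raised, 12.9% of the lowered and 8.60% of all promoters. Median GC content was 64.4% in the raised and 53.6% in the lowered set against 64.0% over all, and no test was made. Stretches around the core, in capitals, are shown for 3 raised genes described here, the insulin receptor substrate IRS2 (chr13:109786584-109786675, minus strand, core 46 bases before the start), TSC22D3 (chrX:107775941-107776037, minus strand, 208 bases before) and HERC5 (chr4:88456991-88457091, plus strand, 82 bases before):
IRS2: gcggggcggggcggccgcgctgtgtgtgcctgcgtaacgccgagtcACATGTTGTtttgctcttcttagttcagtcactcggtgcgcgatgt
TSC22D3: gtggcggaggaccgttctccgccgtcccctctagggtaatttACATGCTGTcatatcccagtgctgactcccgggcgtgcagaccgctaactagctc
HERC5: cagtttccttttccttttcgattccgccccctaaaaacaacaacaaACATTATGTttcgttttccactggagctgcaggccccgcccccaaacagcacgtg
The letters describe the sequence only, and binding was not measured.

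Secreted ligands moved both ways. Of 28 tested paracrine genes 7 rose and 13 fell (median -0.16). CXCL12, a chemokine, lay at 96.0, 91.5 and 87.7 scaled fragments with EtOH and at 419, 481 and 457 with R5020 (2.29 ± 0.19). WNT4, a mediator of progesterone in the mammary gland, rose from 104, 119 and 128 to 211, 233 and 220 (0.92 ± 0.09), and WNT7B rose by 1.28 ± 0.06. TGFB2, a growth inhibitor, fell from 799, 803 and 772 to 108, 115 and 121 (-2.78 ± 0.11). FGF12 (-2.71 ± 0.05), the stanniocalcin STC1 (-2.63 ± 0.33), the parathyroid hormone-related peptide PTHLH (-2.56 ± 0.39), the lipase inhibitor ANGPTL4 (-1.83 ± 0.09, summed locus -0.79) and endothelin EDN1 (-1.03 ± 0.03) fell as well. TNFSF11, the RANK ligand, was not analysed here.

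In the ERBB family, EGFR and 4 of its ligands rose while the other measured receptors fell. EGFR lay at 1410, 1452 and 1493 scaled fragments with EtOH and at 4718, 4920 and 4963 with R5020 (1.75 ± 0.03). The ligands EREG (1.90 ± 0.24), BTC (1.79 ± 0.26), EGF (1.72 ± 0.13) and TGFA (1.32 ± 0.06) rose, and so did NRG2 (2.55 ± 0.33), a neuregulin. The ligands AREG (0.58 ± 0.32) and HBEGF (0.18) were not called, and both moved with single libraries: AREG lay at 0.84, then called, without R5020 replicate 2 and at 0.37 without R5020 replicate 3, and HBEGF between -0.05 and 0.36. ERBB4 fell from 14224 to 15955 scaled fragments down to 5403 to 5778 (-1.45 ± 0.05), ERBB2 fell by 1.19 ± 0.05 and the adaptor GRB7, its neighbour in the genome, by 1.05 ± 0.08. The feedback inhibitors ERRFI1 (1.81 ± 0.05) and LRIG1 (1.14 ± 0.03) rose. Of 17 tested members 10 rose and 4 fell, with a median of 0.94.

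Insulin and insulin-like growth factor signalling showed rises in receptor and substrates. IGF1R, the receptor, went from 11123 to 11514 up to 25759 to 25898 scaled fragments (1.19 ± 0.03). The substrates IRS2 (2.01 ± 0.19) and IRS1 (1.06 ± 0.05), the adaptor GRB10 (1.96 ± 0.03) and the phosphatidylinositol kinase subunit PIK3R1 (1.15 ± 0.04) rose. FOXO1, a factor held in check by insulin, rose from 249, 297 and 281 to 2188, 2244 and 2268 (3.02 ± 0.07). The subunit PIK3R3 fell by 1.54 ± 0.04. Of 24 tested genes 12 rose and 7 fell (median 0.22).

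Among transcription factor families, 11 of 17 Kruppel-like and SP factors rose and 4 fell (median 0.40, and 0.61 with the same counts without T47D-co EtOH replicate 2). KLF4, a factor of epithelial differentiation, went from 226, 228 and 217 scaled fragments to 1095, 1191 and 1068 (2.32 ± 0.11). KLF11 rose by 1.86 ± 0.06, KLF5 by 1.82 ± 0.05 and KLF9 by 1.33 ± 0.16. KLF12 (-0.40 ± 0.06) and KLF3 (-0.36 ± 0.04) fell, as did SP1 and SP3.

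Luminal lineage factors were the list with the lowest median, -0.58, and 16 of 25 fell while 6 rose. FOXA1, the pioneer factor of oestrogen receptor binding, lay at 7313, 6938 and 7263 scaled fragments with EtOH and at 2346, 2414 and 2330 with R5020 (-1.60 ± 0.04). ELF3 (-1.60 ± 0.06, summed locus -0.45), ELF5, an alveolar factor (-1.23 ± 0.03), EHF (-1.13 ± 0.05), SPDEF (-0.86 ± 0.06) and GATA3 (-0.82 ± 0.03) fell. STAT5A, the prolactin-activated factor, was among the exceptions and went from 8.66, 5.00 and 5.76 to 117, 87.3 and 87.1 (3.73 ± 0.20). RUNX1 (2.23 ± 0.05), GRHL1 (1.78 ± 0.04) and ZNF703 (1.77 ± 0.10) rose also. The summed level of the 9 luminal markers of the line check went from 116400 to 118200 scaled fragments with EtOH to between 78950 and 80710 with R5020. Most of that drop lay in PGR, GATA3 and ESR1, which are themselves among the lowered genes, while EPCAM (0.04 ± 0.03) and KRT19 (-0.10 ± 0.06) were not called. In a bulk sample a change in the share of 1 kind of cell and a change of RNA per cell cannot be told apart.

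Oestrogen receptor targets split, with 9 of 22 raised and 11 lowered (median -0.13). RET, a receptor tyrosine kinase, rose from 28.9, 28.5 and 30.0 scaled fragments to 260, 274 and 233 (3.09 ± 0.11). GREB1, an oestrogen receptor cofactor, rose by 2.13 ± 0.06 and SCUBE2 by 1.75 ± 0.05. BCL2, the survival gene, fell by 2.34 ± 0.16 and RERG by 0.94 ± 0.05. Of 11 tested keratins 3 rose and 4 fell: beside KRT5, KRT16 (1.42 ± 0.31) and KRT15 (0.71 ± 0.09) rose, and KRT23 (-0.90 ± 0.05), KRT80 (-0.85 ± 0.05), KRT18 (-0.50 ± 0.04, summed locus -0.32) and KRT8 (-0.23 ± 0.04) fell.

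Stem, basal and mesenchymal genes gave 10 rises and 6 falls among 18 (median 0.43). SNAI1, a repressor of E-cadherin, went from 11.5, 12.8 and 16.1 scaled fragments to 81.9, 102 and 79.3 (2.62 ± 0.27). The Notch ligand JAG1 (2.45 ± 0.17), the hyaluronan receptor CD44 (1.97 ± 0.07) and the factors SOX9 (1.75 ± 0.07) and SOX4 (1.53 ± 0.05) rose. TWIST1 (-2.05 ± 0.27), SOX2 (-1.74 ± 0.06, summed locus -0.78), TP63 (-0.86 ± 0.23) and fibronectin FN1 (-0.69 ± 0.05) fell.

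Most genes of the G1 and S phases rose, while mitotic genes moved both ways. Of 33 tested G1 and S genes 30 rose and 0 fell (median 0.56). CCND1, the cyclin of G1 progression, lay at 1747, 1717 and 1747 scaled fragments with EtOH and at 6690, 6812 and 6377 with R5020 (1.93 ± 0.04). MYC went from 25.02, 38.5 and 38.0 to 135, 160 and 164 (2.17 ± 0.17). E2F1 (1.35 ± 0.05), the phosphatase CDC25A (1.31 ± 0.05), the replication factors MCM10 (1.30 ± 0.05) and CDC45 (1.03 ± 0.06), CDK6 (1.25 ± 0.04) and CCNE2 (1.19 ± 0.08, summed locus 0.59) rose. Without T47D-co EtOH replicate 2 the count of 30 and 0 was the same, and with quantile normalization it was 27 and 1.

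Of 23 tested mitotic genes 7 rose and 9 fell, none by 2-fold, with a median of -0.09. KIF23 rose by 0.55 ± 0.04 and the survivin gene BIRC5 by 0.38 ± 0.05. KIF20A rose by 0.52 ± 0.05, and its summed locus moved by 0.10. CENPE fell by 0.48 ± 0.07 and TOP2A by 0.29 ± 0.04. With quantile normalization 4 rose and 12 fell. Cyclin-dependent kinase inhibitors gave 3 rises and 4 falls among 8. CDKN1C (p57) went from 13.5, 22.8 and 13.8 scaled fragments to 76.4, 66.3 and 79.3 (2.12 ± 0.25). CDKN2B (-1.43 ± 0.10) and CDKN2A (-0.55 ± 0.05), neighbours whose summed locus moved by -0.24, fell, and CDKN2D fell by 0.66 ± 0.18.

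Antiviral interferon-stimulated genes were mostly lower with R5020 although no interferon had been added. Of 49 tested genes 31 fell and 10 rose (median -0.49), against 30.0% lower and 26.6% higher over all genes, and 12 fell and 3 rose by at least 2-fold. IFIT1, which blocks translation of viral RNA, lay at 117, 155 and 103 scaled fragments with EtOH and at 21.9, 30.9 and 74.6 with R5020, a fall of 1.70 ± 0.30 (limma, Benjamini-Hochberg adjusted p = 3.08e-05). R5020 replicate 3 was the highest of its group in IFIT1 and in MX1. MX1, a GTPase against viruses, went from 272, 310 and 279 to 141, 192 and 271 (-0.56 ± 0.14, and -0.33 without R5020 replicate 1). ISG15, the ubiquitin-like modifier, fell from 72.2, 59.9 and 64.5 to 35.0, 46.2 and 39.0 (-0.70 ± 0.15).

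Further falls covered sensors and effectors of the antiviral state. SAMD9L (-1.85 ± 0.33), the membrane restriction factor IFITM3 (-1.74 ± 0.32), the RNA sensor OAS1 (-1.65 ± 0.31) and XAF1 (-1.49 ± 0.30) fell. The deISGylase USP18 (-1.09 ± 0.17), the ubiquitin ligase TRIM25 (-0.90 ± 0.04) and the RNA helicase DDX58 (-0.79 ± 0.08), also known as RIG-I, fell too. Many members were low, with EtOH means of 11.9 scaled fragments for IFITM3, 15.3 for XAF1 and 33.0 for OAS1. The summed locus that holds IFIT1 moved by -0.41 and that of OAS1 by -0.43.

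LAMP3, HERC5 and TRIM14 went the other way. LAMP3, a lysosomal membrane protein of dendritic cells, lay at 166, 186 and 214 scaled fragments with EtOH and at 1544, 1478 and 1591 with R5020 (3.02 ± 0.08). HERC5, the ligase that attaches ISG15 to proteins, rose from 68.3, 50.7 and 63.4 to 281, 284 and 322 (2.27 ± 0.12). TRIM14 rose by 1.63 ± 0.05, and its summed locus by 0.73. The 7 other raised members ranged up to SP110 at 0.71 ± 0.08. The summed locus of SP110 moved by -0.03, against its own direction. Without T47D-co EtOH replicate 2 the list gave 26 falls and 10 rises, with quantile normalization 26 and 10, and with only the 6 libraries fitted 27 and 8.

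**Figure D3:**
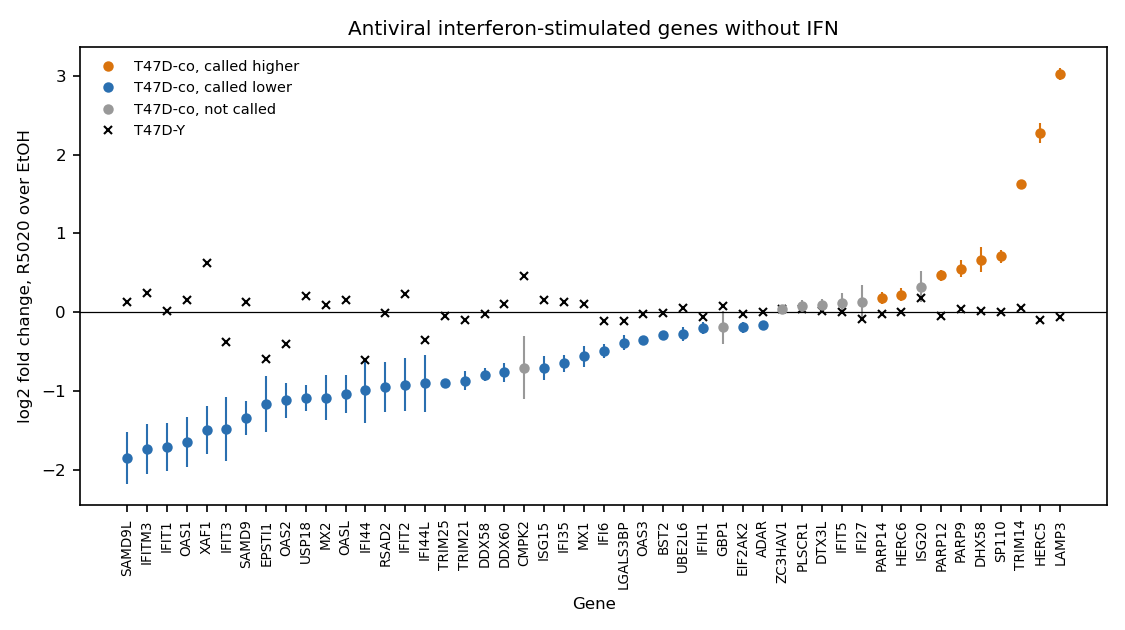
Log2 fold change with R5020 of 48 antiviral genes in T47D-co given water (3 libraries a group), coloured by call. Bars are ± SE from the spread shared over all 24 libraries, and crosses are the T47D-Y estimates. The 31 lowered genes reach -1.85 (SAMD9L), the 9 raised genes drawn reach 3.02 (LAMP3), and the crosses lie between -0.61 and 0.62.

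Receptors and signal transducers of interferon moved in both directions, with 12 of 33 raised and 14 lowered (median -0.01). STAT2 went from 873, 931 and 892 scaled fragments to 705, 714 and 777 (-0.30 ± 0.04). IRF7 (-0.56 ± 0.10), STAT6 (-0.61 ± 0.05) and the interferon-lambda receptor IFNLR1 (-1.003 ± 0.08) fell. STAT3 rose from 2719 to 2774 up to 5811 to 5923 (1.10 ± 0.03), and IRF1 (1.02 ± 0.13), JAK2 (0.91 ± 0.05) and SOCS3 (1.31 ± 0.33) rose. CISH, a STAT5-induced inhibitor of cytokine signals, fell by 2.55 ± 0.14, while its summed locus moved by -0.57.

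Signalling feedback and immediate early genes held large changes of both signs. In NF-kappaB signalling 8 of 18 rose and 6 fell (median 0.06), against 6 and 6 (median 0.20) without T47D-co EtOH replicate 2. The inhibitors NFKBIA (1.79 ± 0.05) and TNFAIP3 (1.35 ± 0.11) rose, while the subunit RELB (-0.82 ± 0.12) and the target TNFAIP2 (-1.42 ± 0.07) fell. SOD2, the mitochondrial superoxide dismutase, rose by 1.62 ± 0.04, and its summed locus by 1.05. Among MAP kinase feedback genes 10 of 21 rose and 9 fell (median 0.45). DUSP5 went from 714, 762 and 747 scaled fragments to 61.7, 72.2 and 79.3, and DUSP10 (-2.84 ± 0.18), SPRY2 (-1.87 ± 0.09), SPRY1 (-1.41 ± 0.14) and DUSP6 (-1.23 ± 0.15) fell. DUSP1, which dephosphorylates stress kinases and is a glucocorticoid target, rose by 2.21 ± 0.14. The AP-1 and immediate early list gave 13 rises and 3 falls of 21 (median 0.45), with CYR61 at 2.90 ± 0.05, NR4A2 at 1.51 ± 0.13 and EGR1 at -1.71 ± 0.47 (-0.88 without R5020 replicate 3).

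Ion transport genes included some of the sharpest rises. SCNN1G, a subunit of the epithelial sodium channel, went from 4.86, 16.0 and 13.0 scaled fragments to 213, 240 and 224 (4.34 ± 0.43). The sodium pump subunit ATP1B1 (1.19 ± 0.03), the kinase STK39 (2.01 ± 0.06) and the potassium channel KCNMA1 (2.12 ± 0.06) rose, and the potassium channel KCNJ3 fell by 2.88 ± 0.28. Of 26 tested genes 15 rose and 7 fell (median 0.39).

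Enzymes that inactivate or convert steroids rose as well. HSD11B2, which inactivates cortisol, lay at 62.6, 58.5 and 66.8 scaled fragments with EtOH and at 719, 778 and 733 with R5020 (3.55 ± 0.13). AKR1C3 (3.28 ± 0.45), AKR1C2 (2.79 ± 0.38) and the reductase SRD5A1 rose, SRD5A1 from a mean of 406.7 to 1877 scaled fragments. AKR1C1, AKR1C2 and AKR1C3 are related genes between which fragments may have been divided. HSD17B2, an oxidase of oestradiol, rose by 3.51 ± 0.50, and its summed locus by 0.61. TIPARP, a repressor of the aryl hydrocarbon receptor, rose from 1058 to 1106 up to 10560 to 10760 scaled fragments (3.30 ± 0.05). The sulfotransferase SULT2B1 (-0.82 ± 0.06) and the sulfatase STS (-0.66 ± 0.07) fell. Of 17 tested genes 11 rose and 4 fell, with a median of 0.77.

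In lipid metabolism, synthesis genes rose by small amounts, with 18 of 24 raised and 1 lowered (median 0.26). ELOVL5, a fatty acid elongase, rose by 1.09 ± 0.03, the squalene oxidizing enzyme SQLE by 0.71 ± 0.04 and FASN by 0.55 ± 0.08. The sterol desaturase SC5D fell by 0.48 ± 0.05. With quantile normalization the counts were 14 and 3. Of 21 genes of lipid uptake, storage and oxidation 10 rose and 6 fell (median 0.002307): ACSL1 (1.77 ± 0.03), PLIN2, which coats lipid droplets (1.45 ± 0.10), MGLL (1.42 ± 0.07) and ABCA1 (1.28 ± 0.08) rose, and CPT1A, the entry step of fatty acid oxidation, fell by 0.47 ± 0.03.

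Glycolysis and hypoxia genes gave 13 rises and 3 falls of 23 (median 0.29), and 13 and 7 (median 0.18) with quantile normalization. NDRG1 rose by 1.78 ± 0.10, BNIP3, a mitophagy receptor, by 1.16 ± 0.07 and PFKFB3, an activator of glycolysis, by 1.16 ± 0.04. EPAS1, also known as HIF-2 alpha, fell by 0.76 ± 0.03, and ANKRD37 fell by 0.96 ± 0.24 with its summed locus at -0.46. Of 23 amino acid and glucose transporters 14 rose and 4 fell (median 0.47), among them SLC7A1 (1.03 ± 0.04) and SLC2A1, the glucose transporter GLUT1 (0.81 ± 0.05). SLC16A6 (1.59 ± 0.21), SLC16A1 (1.56 ± 0.19) and SLC1A1 (1.12 ± 0.11) rose, but their summed loci moved by 0.01, 0.98 and 0.20, and that of SLC16A6 was not called. Among metallothioneins and zinc transporters 7 of 9 rose and 0 fell (median 0.82), led by SLC39A14 (2.01 ± 0.04), MT2A (1.43 ± 0.16) and SLC30A1 (1.31 ± 0.06). MTF1, the metal-sensing factor of metallothionein genes, rose by 0.43 ± 0.04.

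Stress response genes gave 12 rises and 6 falls of 26 (median 0.11). CHAC1, a glutathione-degrading enzyme, went from 4.81, 7.14 and 8.06 scaled fragments to 58.0, 57.1 and 59.8 (2.97 ± 0.30). CEBPG (1.51 ± 0.06), ERN1 (1.15 ± 0.08) and TRIB3 (0.84 ± 0.04) rose, while DDIT3 (-0.40 ± 0.12) and PPP1R15A (-0.55 ± 0.09) fell. DDIT3 was not called without R5020 replicate 3 (-0.28), and its summed locus moved by 0.16. Of 19 clock genes 7 rose and 10 fell (median -0.12). TEF (-1.55 ± 0.11), HLF (-1.34 ± 0.16) and DBP (-1.36 ± 0.13), the 3 related bZIP output factors, fell, and the core activator ARNTL fell by 0.89 ± 0.06. The summed locus of DBP moved by -0.08 and was not called. BHLHE41, a repressor of the clock, fell by 2.79 ± 0.26 as listed, but its summed locus rose by 0.64, so its direction depends on how fragments were divided.

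In the BCL2 and cell death list 17 of 30 rose and 5 fell (median 0.33), with changes on both sides of the death pathway. BCL2L11, the death activator BIM, lay at 370, 391 and 369 scaled fragments with EtOH and at 2426, 2368 and 2433 with R5020 (2.68 ± 0.05). BCL2, which BIM opposes, went from 117, 113 and 113 to 28.5, 23.5 and 15.6. BCL2L1, the survival protein BCL-X, rose by 0.98 ± 0.03. TNFSF10, the death ligand TRAIL and an interferon target, fell from 199, 209 and 185 to 30.4, 37.1 and 33.8 (-2.52 ± 0.14), while its receptors TNFRSF10A (1.82 ± 0.06) and TNFRSF10B (1.21 ± 0.04) rose.

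Cell contact and matrix genes moved both ways. Of 22 junction genes 9 rose and 9 fell (median -0.02), and 8 and 12 (median -0.15) with quantile normalization. GJB2, the gap junction protein connexin 26, went from 55.8, 52.8 and 69.1 scaled fragments to 633, 627 and 619 (3.39 ± 0.14), and periplakin PPL rose by 2.45 ± 0.04. CLDN1, a tight junction claudin, fell from 9028, 8861 and 8793 to 1824, 1990 and 1873 (-2.23 ± 0.05), and CLDN3 fell by 1.17 ± 0.07. Of 30 matrix, integrin and protease genes 7 rose and 14 fell (median -0.26). PLAUR, the urokinase receptor (2.14 ± 0.23), thrombospondin THBS1 (1.76 ± 0.05) and the laminin chain LAMA3 (1.40 ± 0.05) rose, while urokinase PLAU (-3.16 ± 0.22) and the integrin ITGB6 (-1.86 ± 0.08) fell.

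Developmental pathways were divided in the same manner, with 13 of 32 Wnt, Notch and TGF-beta genes raised and 14 lowered (median -0.05). LEF1, a nuclear effector of Wnt, rose from 279, 281 and 246 scaled fragments to 2129, 2209 and 2114 (3.00 ± 0.10), and the Wnt receptor FZD1 by 2.01 ± 0.10. NOTCH2 rose by 2.01 ± 0.03, while NOTCH3 (-0.94 ± 0.07), the ligand DLL1 (-1.07 ± 0.29) and the Notch target HES1 (-1.37 ± 0.08) fell. The BMP receptor BMPR1B (-1.86 ± 0.21) and the BMP targets ID1 (-1.06 ± 0.16), ID2 (-1.42 ± 0.09) and ID3 (-0.94 ± 0.13) fell.

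**Figure D4:**
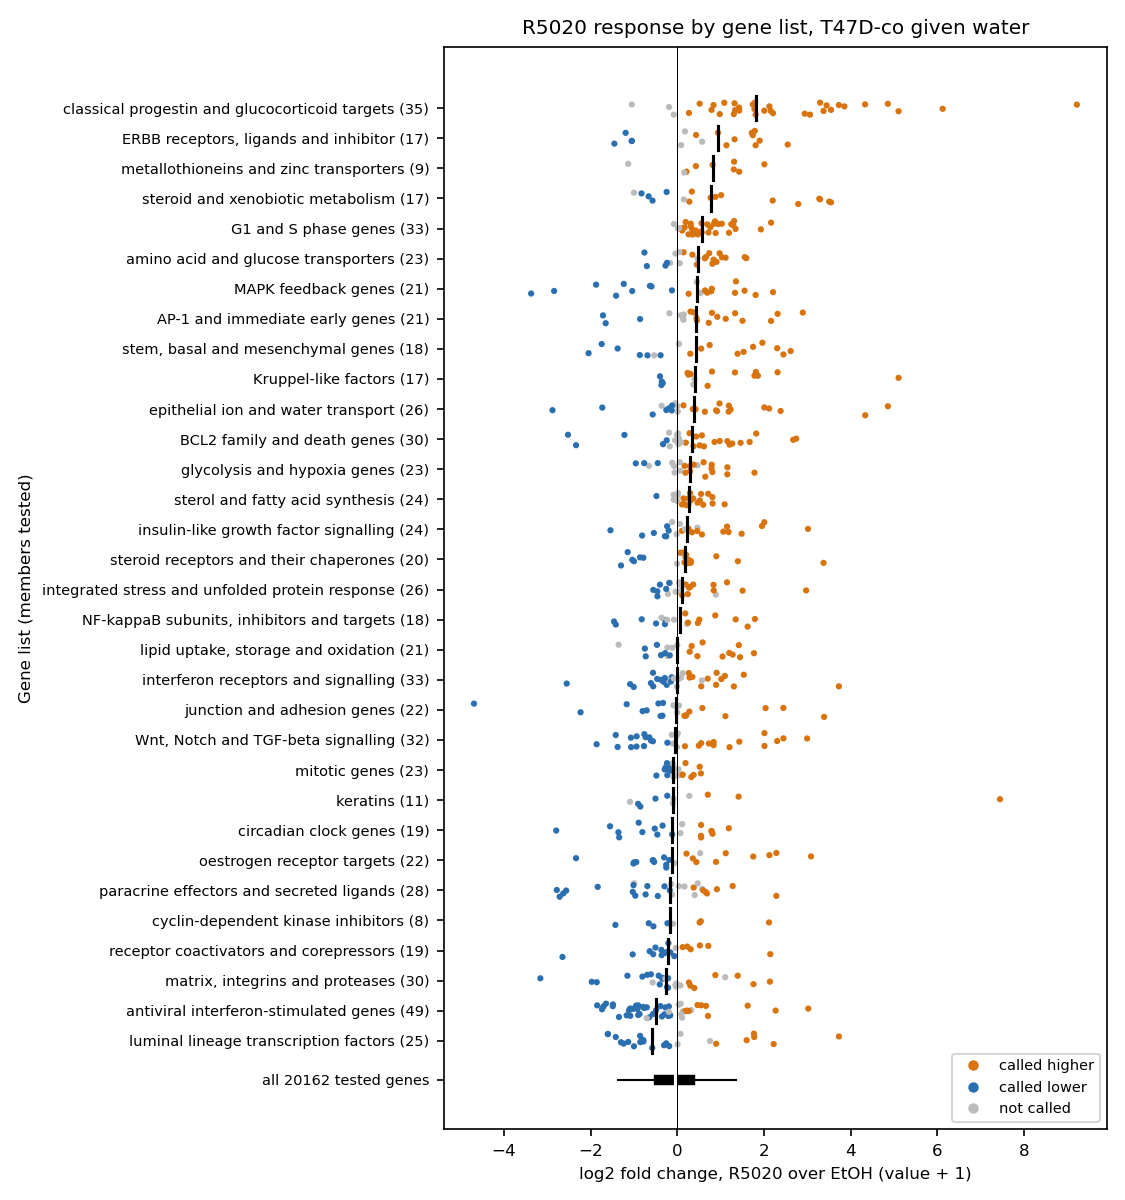
Log2 fold change with R5020 of each tested member of 32 gene lists in T47D-co given water, 1 point per gene coloured by call, with a black tick at the list's median. The bottom bar gives all 20162 tested genes (median -0.04, thick bar from the 25% to the 75% quantile, -0.41 to 0.30, thin bar from the 5% to the 95% quantile, -1.37 to 1.37), and list medians run from -0.58 (luminal lineage factors) to 1.81 (classical targets).

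The response was set beside that of the line labelled PR null. PGR lay at a mean of 692.6 scaled fragments in T47D-Y given EtOH, against 26480 in T47D-co. In T47D-Y given water limma called 44 of 20162 genes (0.218%), 41 higher and 3 lower. At an unadjusted p under 0.05 there were 847, a share under 0.05 of the tested genes. The difference between the lines was called for 8988 genes (44.6%). Of the 1430 genes raised at least 2-fold in T47D-co 31 rose in T47D-Y, where their median was 0.05 against 1.62, and 1246 had a called difference between the lines. Of the 1627 lowered at least 2-fold 2 fell in T47D-Y, with medians of -0.02 and -1.48, and 1335 had a called difference. These genes were chosen in T47D-co, so the larger size there is set in part by the choice. Of the 35 tested classical targets limma called 7 in T47D-Y, where 10 were higher and 1 lower at an unadjusted p under 0.05. By limma 0 of the 49 antiviral genes were called in T47D-Y, and 0 had an unadjusted p under 0.05 there.

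The T47D-Y libraries given water were themselves uneven. Mitochondrial transcripts took 0.942% of the fragments of EtOH replicate 1 and 0.974 and 0.955% of R5020 replicates 1 and 2, against 3.80 and 4.13% in EtOH replicates 2 and 3 and 4.01% in R5020 replicate 3. Deviations from the group means correlated at 0.29 and 0.31 between the low EtOH library and the low R5020 libraries, and at -0.60 between that library and R5020 replicate 3. Without the 3 low libraries limma called 21 genes in T47D-Y, 15 higher and 6 lower, and 7056 differences between the lines. The lone R5020 library was assumed there to vary like the other groups. Of the genes raised at least 2-fold in T47D-co 12 then rose in T47D-Y (median 0.05), and of those lowered 1 fell (median -0.04).

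A few members moved in both lines. In T47D-Y ZBTB16 rose by 3.56, CORO2B by 2.35, SGK1 by 0.94, FKBP5 by 0.79 and KLF4 by 0.61, against 9.22, 9.17, 4.86, 3.38 and 2.32 in T47D-co. All 5 differences between the lines were called, from 1.71 for KLF4 to 6.82 for CORO2B. Without the 3 T47D-Y libraries of low mitochondrial share the T47D-Y values were 3.62 for ZBTB16, 2.24 for CORO2B, 1.12 for SGK1 and 0.80 for FKBP5, all called, and 0.76 for KLF4, which was not, and all 5 differences were still called. PGR fell by 0.57 on the log2 scale in T47D-Y and by 0.998 in T47D-co, a called difference of -0.42. Other traits in which the lines may differ cannot be told apart from the receptor here.

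Few of these responses had a called difference when IFN was given alongside. The R5020 response of T47D-co with IFN has its own 6 libraries and held 11725 calls. Of the 1430 raised genes 1304 rose there, and of the 1627 lowered genes 1366 fell. Their medians were 1.61 and -1.30 with IFN, against 1.62 and -1.48 with water, where the genes were chosen. The interaction of R5020 with IFN was called for 203 genes (1.01%), 176 higher and 27 lower. That count was 33 with the replicate block and 83 to 238 with 1 replicate left out. The interaction had an unadjusted limma p under 0.05 in 3100 of the 20162 tested genes, so a lack of calls does not show equal responses. It shares the libraries given water with the response described here. LAMP3 had the lowest value, with rises of 3.02 with water and 1.47 with IFN (difference -1.56, adjusted p = 1.9e-09 by limma with Benjamini-Hochberg adjustment). CYP1B1, an enzyme of oestrogen and xenobiotic oxidation, rose by 0.77 with water and by 1.68 with IFN (difference 0.91).

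**Figure D5:**
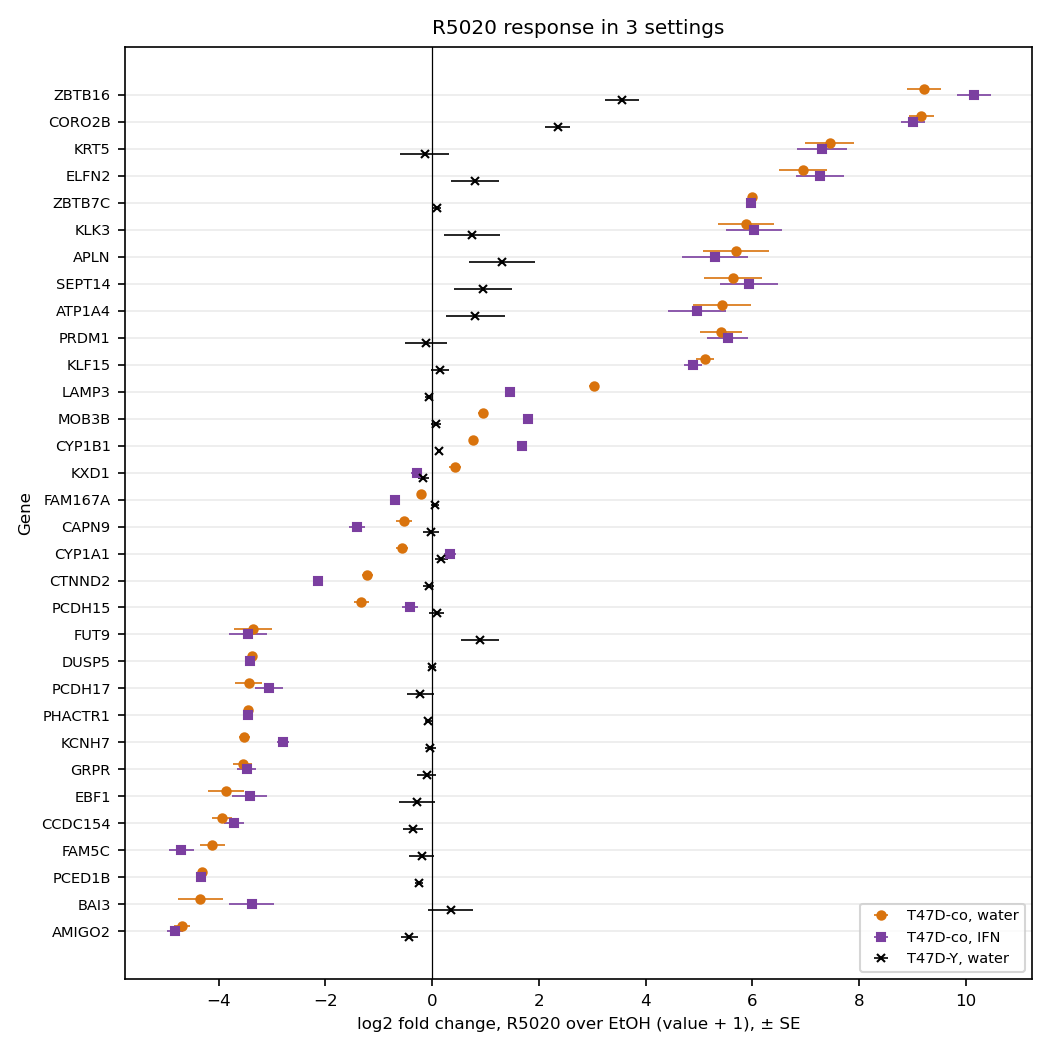
Log2 fold change with R5020 (± SE) of 32 genes, among those with the largest rise or fall in T47D-co given water or the largest called interaction with IFN, in T47D-co with water (orange), T47D-co with IFN (purple) and T47D-Y with water (black). The orange and purple points of the large responders lie close together, LAMP3 lies at 3.02 and 1.47, and in T47D-Y only ZBTB16 (3.56) and CORO2B (2.35) exceed 2.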

How the data were processed

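Total RNA was sequenced from 24 libraries in 8 groups of 3 biological replicates. TopHat2 2.0.12 and Cufflinks 2.2.1 on GRCh37 (hg19) were used per the submitters' processing notes. The deposited table holds a scaled signal per gene: estimated fragments divided by 1 factor per library, per the values, since the file names no unit. Of genes alone at their locus, 97.7 to 99.0% of values were whole multiples of 1 step within a tolerance of 0.05, against 63.3 to 65.9% of all, so no count model was used. Because the authors' factors came from blocks of 6 libraries, new median-of-ratios factors were set over 24 libraries in their place, from the 14209 genes averaging 50 fragments or more. Of 25541 entries, 12952 share a locus, 3511 hold several merged genes and 25 with repeated symbols were left out.

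Genes with at least 10 scaled fragments in 3 libraries were fitted with limma 3.58.1 in R 4.3.3 on log2(value + 1). The model held 8 group means and a variance trend, with 16 residual degrees of freedom and Benjamini-Hochberg adjustment over 20162 genes. The fit was also run on simulated data in which few genes changed, in 1 group only. In the real data most genes were called, so that run does not test the calls given here. Python 3.11.15, numpy 2.4.6 and pandas 2.3.3 were used for the rest. Depth was 14140000 to 33610000 fragments over the 24 libraries. Same-numbered libraries of the 2 groups did not deviate together (correlations -0.02, -0.0013 and -0.016), so numbers were not used as pairs.

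The members and the 32 gene lists, the naming rule and the tests were chosen with earlier results of these data known. The 12 largest rises and falls and 6 largest gains and losses in level were taken from called protein-coding genes. These needed a mean of at least 50 scaled fragments in 1 group and no overlap. The 5 largest called interactions each way, also of protein-coding genes, needed that mean in 1 of the groups compared. They needed neither a call in T47D-co given water nor a lack of overlap. Up to 4 called members per list needed the mean but could overlap, and 15 genes were always shown. Other list members may be named with their value, and some genes that meet the rule are not reported here. Alternatives covered scaling, the pseudocount, filters, the variance model, locus sums, each replicate left out and the replicate block.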

Additional observations from a re-analysis of the deposited data

Results flagged for a closer look

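The R5020 effect differed between T47D-co and T47D-Y for 8988 genes by limma's interaction test with Benjamini-Hochberg adjustment. The difference (T47D-co minus T47D-Y, log2) was 7.59 for KRT5, 6.82 for CORO2B and 6.15 for ELFN2. It was -4.69 for BAI3, -4.26 for AMIGO2, -4.25 for FUT9 and -4.06 for PCED1B. MGAT2 (6.60) and PGAM2 (-5.03) share their loci with other genes, and both differences rest in part on the change in T47D-Y, whose libraries were uneven. Neither had a called effect in T47D-co (2.01 ± 1.88 and -2.59 ± 1.32), where 1 library decided each value. MGAT2 lay at -0.05 without R5020 replicate 2 and at 3.04 without R5020 replicate 1 or 3. PGAM2 lay at -0.56 without R5020 replicate 3, and at -3.63 and -3.57, then called, without R5020 replicates 1 and 2. Their summed loci moved by 0.55 and -0.16 in T47D-co, both called.

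The R5020 effect in T47D-co differed between IFN and water for 203 genes by the same test. The difference (IFN minus water, log2) was 0.91 for CYP1B1, 0.91 for the protocadherin PCDH15, 0.90 for CYP1A1, an aryl hydrocarbon receptor target, 0.85 for MOB3B and 0.73 for KCNH7. It was -1.56 for LAMP3, -0.93 for the catenin CTNND2, -0.88 for the calpain CAPN9, -0.72 for KXD1 and -0.48 for FAM167A. KXD1 rose by 0.43 in T47D-co given water, but its summed locus, at 0.11, was not called. FAM167A lay at -0.21 there, with its summed locus at 0.30, and was not called without EtOH replicate 1 (-0.19) or R5020 replicate 3 (-0.16).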

How the results depend on the processing

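The count of called genes was 10595 to 10850 when each replicate was left out in turn, 10965 with the replicate block and 2993 with limma's treat test against 1.5-fold. Genes raised and lowered at least 2-fold numbered 1140 and 995 with a pseudocount of 10. They numbered 1082 and 1047 with a filter of 50 scaled fragments and 1460 and 1363 with quantile normalization. In these settings the raised were the larger group, while in the main fit, at 1430 and 1627, the lowered were. The count differing between lines was 2298 with treat, 8448 with the replicate block and 8531 to 8718 with a replicate left out. The count differing between IFN and water was the least stable: 67 with quantile normalization, 118 with only the libraries compared, 59 without a variance trend, 33 with the replicate block, 2 with treat and 83 to 238 with a replicate left out. Summing loci reversed FAM167A (0.30), BHLHE41 (0.64), DDIT3 (0.16) and SP110 (-0.030), and of the 3057 genes changed at least 2-fold it turned the sign of 98. No other alternative turned the sign of any of them that it tested. With a pseudocount of 10 the values of genes near 0 shrank, KRT5 to 4.68, KLK3 to 3.01, ATP1A4 to 2.57, BAI3 to -2.86, IFITM3 to -0.76 and SAMD9L to -1.01. Count models were not run because values at shared loci were not whole. Locus sums were computed for single genes and not for the counts of calls, and treat for the counts of calls only. The cause of these shifts was not tested. The counts of gene lists without T47D-co EtOH replicate 2 and under other scalings, and the fit without 3 T47D-Y libraries of low mitochondrial share (21 genes called in T47D-Y against 44), were added after seeing the data.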
